A study of Mus musculus with 6 samples.

Results

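The genes described here are the 37 genes of the mouse mitochondrial genome, taken as every gene in the deposited count table whose name starts with mt-, of 46078 genes listed. They comprise 2 rRNA genes, 13 protein-coding genes and 22 tRNA genes. RNA was sequenced from cells of C2C12, an established mouse line of myoblasts that exit the cell cycle and fuse into multinucleated myotubes once serum is removed, after 2 days of differentiation in medium supplemented with ITS. The groups were *Hnrnpa2b1* KO cells (3 libraries, KO1 to KO3) and WT cells (3 libraries, WT1 to WT3), which differed by genotype and shared every culture step named in the labels. KO and WT clones were isolated independently, per the methods, after transfection with a Cas9 and sgRNA plasmid and puromycin selection, but no clone is tied to a library, so the p-values measure the spread between these libraries.

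The mitochondrial genome is a small circle that is transcribed on both strands into long precursors, from promoters beside its noncoding control region. Most mRNAs and rRNAs in the precursors are flanked by tRNAs, and excision of the tRNAs releases them. The products serve oxidative phosphorylation alone: the mRNAs encode subunits of respiratory complexes I, III and IV and of the ATP synthase (complex V), and the rRNAs and tRNAs translate them, whereas all other mitochondrial proteins are imported from the cytosol. In muscle, this system supplies much of the ATP of oxidative fibres, and its content rises as myoblasts differentiate.

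In *Hnrnpa2b1* KO cells, the counts of 3 mitochondrial tRNA genes were lower than in WT cells. These were mt-Tp, mt-Tc and mt-Tn, the tRNAs for proline, cysteine and asparagine, with log2 fold changes of −1.85, −1.43 and −1.44. Counts on a tRNA gene do not tell excised tRNA from precursor RNA, so they are not the level of the tRNAs in the cells. None of the 13 mRNA genes and neither rRNA gene passed the test. Of the 37 genes, 20 had enough counts to be tested, and the call was made with edgeR's quasi-likelihood test at an adjusted p of 0.05 over 14828 genes. The same test called 22.7% of all tested genes, 10.6% lower and 12.1% higher in KO cells, so that 3 calls among 20 members, all lower, is near the background. The other 17 tRNA genes were too sparse to be tested, and 7 of them had a count of 0 in every library.

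The RNA sequences of the 3 called tRNA genes are shown because each carries a call and because all lie on the light strand. The 28 genes on the forward strand of the reference are called heavy-strand genes here. The 9 on the reverse strand are called light-strand genes, and both names follow the promoters that transcribe them. The strand setting of the counting is not given, so counts of the 3 called genes may include RNA from the opposite strand. The sequences are read from the GENCODE vM21 transcripts (GRCm38) as DNA, 5′ to 3′, and the anticodon is in capitals. mt-Tp lies at chrMT:15356-15422 next to the control region, whereas mt-Tc (chrMT:5192-5257) and mt-Tn (chrMT:5089-5159) lie in a cluster of tRNA genes between mt-Nd2 and mt-Co1, on either side of the origin of light-strand replication.
mt-Tp: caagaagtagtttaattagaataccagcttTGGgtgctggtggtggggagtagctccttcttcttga
mt-Tc: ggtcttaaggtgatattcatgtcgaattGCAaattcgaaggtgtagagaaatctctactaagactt
mt-Tn: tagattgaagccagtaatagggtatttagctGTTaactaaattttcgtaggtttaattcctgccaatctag

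Sequencing depth was similar across libraries, with 33605258 to 40558740 counts on genes. The targeted gene does not check the labels at the RNA level: *Hnrnpa2b1* was not called (log2 fold change −0.23, SE 0.18, adjusted p = 0.381 by edgeR), and its CPM (read counts scaled to library size by TMM) overlapped between genotypes. Per the methods, the KO clones were checked at the protein level, by immunofluorescence and Western blotting. The labelled cell type was checked against 8 myotube markers, and 7 were at 71.1 CPM or more in every library, *Tnnc2* being the exception at 0.275 to 0.636 CPM. The summed CPM of these markers was 16948, 6424 and 6044 in the KO libraries (KO1, KO2 and KO3, in that order throughout) and 13760, 11186 and 14781 in the WT libraries (WT1, WT2 and WT3), with KO1 the highest and KO2 and KO3 the lowest library, and 0 of 8 were called. *Myh8* (log2 fold change −1.73, adjusted p = 0.0562 by edgeR) and *Myh3* (−1.18, adjusted p = 0.126) were nevertheless lower in each KO library than in any WT library. Markers of other lineages were at or near 0 for adipocytes, endothelium and blood (at most 3.47 CPM summed). Fibroblast markers summed to 10.5 to 96.9 CPM, most of it *Dcn* in KO1, and *Pdgfra* was higher in KO cells (log2 fold change 1.17, adjusted p = 0.0257 by edgeR). The endothelial gene *Kdr*, at most 1.37 CPM, was lower (−2.15, adjusted p = 0.0363). Of 3 satellite or reserve cell markers, *Pax7* and *Cd34* were higher and *Myf5* lower in KO cells. Among 11 tested nuclear-retained and small RNAs taken as signs of RNA quality, 0 were called and 1, *Kcnq1ot1*, had an unadjusted p under 0.05 by edgeR (log2 fold change 1.497, adjusted p = 0.0775). KO3, the library with the highest mitochondrial share, stood apart on some of them, with 46.6 CPM of *Kcnq1ot1* against 4.51 to 15.4 in the other libraries and 8047 CPM of *Malat1* against 2178 to 4685. The part of cell composition and RNA quality in the results was not tested, and in bulk RNA fewer cells of a type cannot be told apart from less RNA per cell.

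The mitochondrial genes together took 5.14%, 3.04% and 6.41% of all gene counts in KO libraries against 3.22%, 2.77% and 5.49% in WT libraries. KO3 and WT3 were the highest of their genotype and KO2 and WT2 the lowest, and the genotypes overlapped. The KO mean was 4.86% ± 1.70 (SD, n = 3), and the WT mean was 3.83% ± 1.46 (SD, n = 3). The difference of 1.04 percentage points was smaller than the pooled SD of 1.58, and with each library left out in turn it lay between 0.26 and 1.95. Without the 2 rRNA genes it was 0.597. At these depths the 95% Wilson interval of a share was narrow, for example 5.13% to 5.14% in KO1. Such intervals cover counting error only, since reads are not independent molecules.

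The mRNA and rRNA genes held nearly all of these counts. mRNA genes took 62.3%, 67.5% and 63.1% of the mitochondrial counts in KO and 59.2%, 66.3% and 69.5% in WT libraries, and rRNA genes took the rest apart from the tRNA genes. The genotypes overlapped for both classes. The tRNA genes took 0.0530%, 0.118% and 0.0556% of the mitochondrial counts in KO libraries, against 0.250%, 0.214% and 0.296% in WT libraries. Here the KO libraries all lay below the WT libraries, and the mean of 0.0757% ± 0.0371 (SD, n = 3) in KO cells was 0.299 times the 0.253% ± 0.0408 (SD, n = 3) in WT cells. The counts of mt-Tp, mt-Tc and mt-Tn made up 95.7% to 99.0% of the tRNA counts of a library, so the class total repeats the 3 calls.

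**Figure D1:**
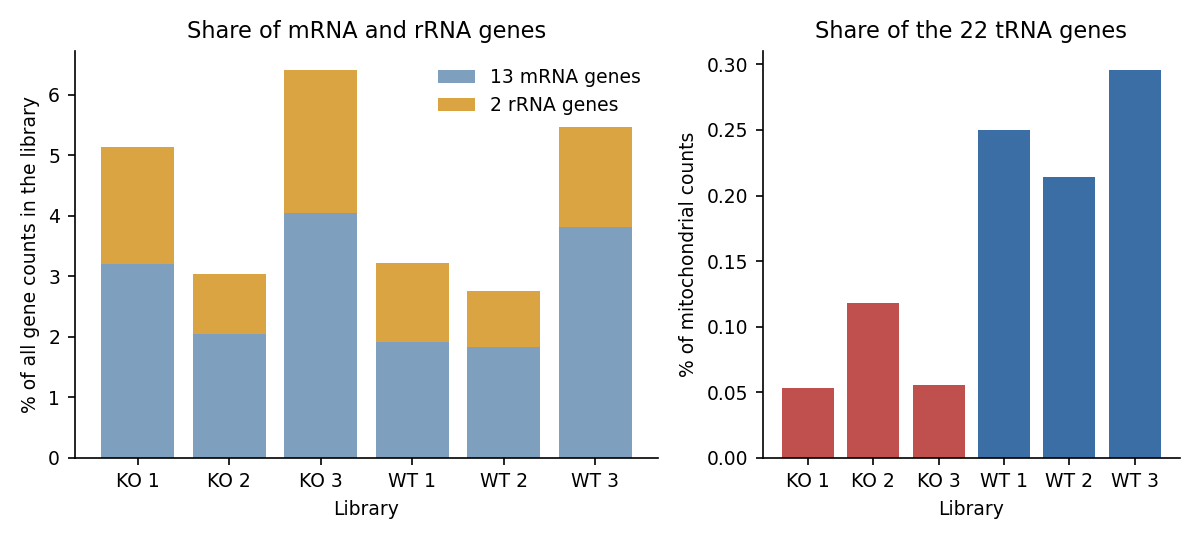
Left, percent of all gene counts in each library taken by the 13 mRNA genes (blue) and the 2 rRNA genes (orange). Right, percent of the mitochondrial counts taken by the 22 tRNA genes, in KO (red) and WT (blue) libraries. The totals overlap between genotypes, whereas the 3 KO libraries lie at 0.0530% to 0.118% for the tRNA genes and the 3 WT libraries at 0.214% to 0.296%.

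mt-Rnr1 and mt-Rnr2 encode the RNAs of the small and large subunit of the mitochondrial ribosome. mt-Rnr1 was at 2176, 899 and 2614 CPM in KO and at 1631, 997 and 1991 CPM in WT libraries. mt-Rnr2 was at 17516, 8224 and 19552 CPM in KO and at 12004, 8487 and 15476 CPM in WT libraries. The genotypes overlapped for both genes, with KO2 the lowest of the 6 libraries. Neither passed the test, with log2 fold changes of 0.30 (SE 0.42, adjusted p = 0.627 by edgeR) and 0.33 (SE 0.42, adjusted p = 0.588). With a library left out, these values ran from 0.0016 to 0.64 for mt-Rnr1 and from 0.11 to 0.63 for mt-Rnr2, without a call. The count of mt-Rnr2 over that of mt-Rnr1 averaged 8.23 ± 0.847 for KO and 7.88 ± 0.582 for WT cells (SD, n = 3 each), also overlapping. Ribosomal RNA was depleted from the libraries and again from the reads, so these counts are what remained and not the level of the rRNAs in the cells.

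Of the 13 mRNA genes, 12 had a positive log2 fold change, with a median of 0.45 beside 0.03 over all tested genes, and 0 were called. In CPM, 0 of the 13 were without overlap between genotypes, beside 44.3% of all tested genes. The positive values were shared by all 7 subunit genes of complex I, which oxidises NADH, from 0.33 to 0.95. mt-Cytb, the subunit of complex III encoded here, was at 0.86, and the ATP synthase genes mt-Atp6 and mt-Atp8 were at 0.39 and 0.59 (adjusted p = 0.424 and 0.306 by edgeR). Among the genes of complex IV (cytochrome c oxidase), mt-Co2 and mt-Co3 were at 0.26 and 0.48 (adjusted p = 0.637 and 0.323 by edgeR), whereas the catalytic subunit mt-Co1 was at −0.07. The direction for mt-Co1 reversed to 0.16 without KO2 and to 0.36 without WT3.

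The largest values belonged to mt-Nd3, mt-Nd5 and mt-Cytb. mt-Nd3, a small membrane subunit of complex I, was at 4.56, 2.47 and 4.17 CPM in KO and at 1.33, 1.83 and 2.64 CPM in WT libraries. Only KO2 and WT3 overlapped, and the log2 fold change was 0.95 (SE 0.36, 95% interval 0.11 to 1.78, adjusted p = 0.0927 by edgeR). mt-Nd5, a proton-pumping subunit of complex I, was at 1166, 740 and 1873 CPM in KO and at 567, 514 and 906 CPM in WT libraries. KO2 lay below WT3, and the log2 fold change was 0.93 (SE 0.37, 95% interval 0.08 to 1.77, adjusted p = 0.102 by edgeR). mt-Cytb was at 3934, 2374 and 5403 CPM in KO and at 1544, 1759 and 3144 CPM in WT libraries. KO2 again lay below WT3, and the log2 fold change was 0.86 (SE 0.39, 95% interval −0.03 to 1.76, adjusted p = 0.140 by edgeR).

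These genes sat near the threshold, and the call depended on the method and on the libraries. Without KO2, edgeR called mt-Nd5 (adjusted p = 0.0433). With a library left out, the log2 fold change ran from 0.53 to 1.20 for mt-Nd5 and from 0.56 to 1.21 for mt-Cytb. It ran from 0.73 to 1.21 for mt-Nd3, and neither mt-Cytb nor mt-Nd3 was called in these fits. DESeq2 called mt-Nd5 (adjusted p = 0.0307) and mt-Cytb (adjusted p = 0.0487), and edgeR without a filter on low counts called mt-Nd5, mt-Nd6 and mt-Cytb, all higher in KO cells. mt-Nd6, the only mRNA gene on the light strand and a complex I subunit, was at 269, 195 and 385 CPM in KO and at 161, 124 and 257 CPM in WT libraries. The log2 fold change of mt-Nd6 was 0.65 (SE 0.32, adjusted p = 0.177 by edgeR). Its neighbour mt-Nd5 lies on the other strand, and the count of mt-Nd6 over that of mt-Nd5 was 0.234 ± 0.0294 (SD, n = 3) in KO and 0.270 ± 0.0245 in WT cells, with overlap.

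**Figure D2:**
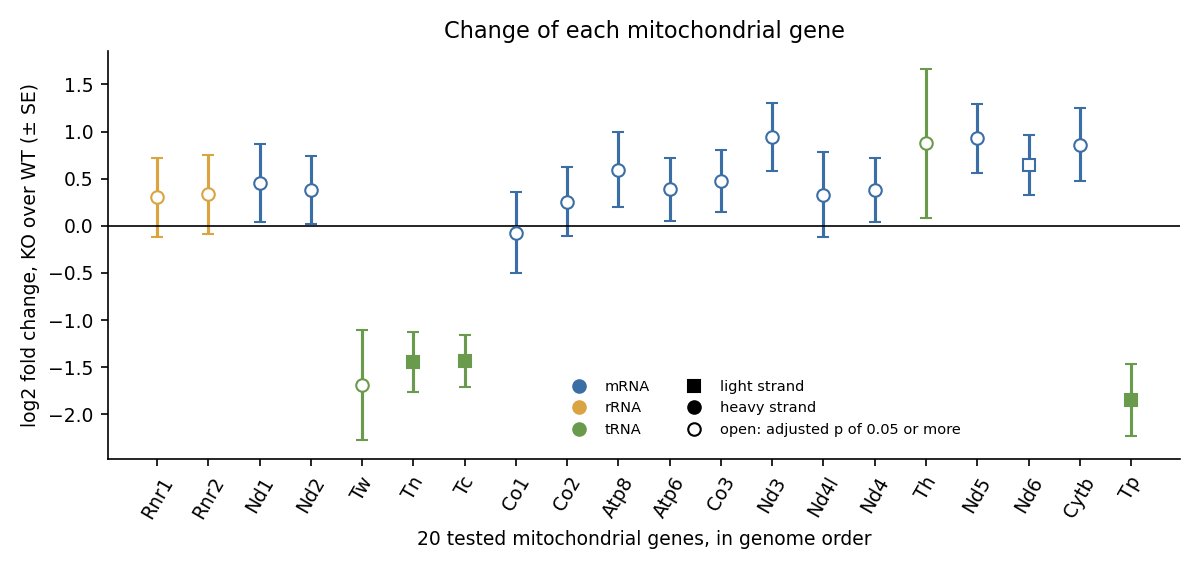
Log2 fold change of KO over WT (points) with its standard error (bars) for the 20 tested mitochondrial genes in genome order, by edgeR. Colour gives the class, squares are light-strand genes, and filled symbols have an adjusted p under 0.05. The filled symbols are mt-Tn, mt-Tc and mt-Tp, all below 0, and the mRNA genes run from −0.07 for mt-Co1 to 0.95 for mt-Nd3.

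The remaining mRNA genes were closer to 0 relative to their errors. mt-Co1 was at 18174, 11242 and 21231 CPM in KO and at 13365, 12473 and 27398 CPM in WT libraries, with a log2 fold change of −0.07 (SE 0.43, 95% interval −1.07 to 0.93, adjusted p = 0.918 by edgeR). mt-Nd1, a subunit near the quinone site of complex I, was at 6859, 3341 and 6502 CPM in KO and at 2988, 2827 and 6376 CPM in WT libraries, with a log2 fold change of 0.45 (SE 0.42, adjusted p = 0.457). The values of both genes were high in KO1, KO3 and WT3 and lower in the other libraries. mt-Nd2 (0.38), mt-Nd4 (0.38) and mt-Nd4l (0.33), further membrane subunits of complex I, had adjusted p-values from 0.436 to 0.621 by edgeR. A p that misses the threshold does not show equal levels: the interval of mt-Nd1, for example, ran from −0.51 to 1.42. Across the 12 heavy-strand mRNA genes, the log2 fold change had a Pearson's r of 0.604 and a Spearman's rho of 0.490 with position along the genome, as a description over genes that share precursors and libraries.

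The composition of the mRNA counts was then compared as a description, without a test. A share within the 13 genes does not depend on how much mitochondrial RNA a library holds, but the shares are tied to each other, so that a lower share of one abundant gene raises the others. mt-Co1 took 55.8%, 59.1% and 55.9% of the mRNA counts in KO libraries against 67.0%, 66.3% and 68.2% in WT libraries. The highest KO share was below the lowest WT share, with means of 56.9% ± 1.86 (SD, n = 3) and 67.2% ± 0.934. mt-Cytb took 12.1%, 12.5% and 14.2% in KO against 7.74%, 9.35% and 7.83% in WT libraries. mt-Nd1 took 21.04%, 17.6% and 17.1% against 15.0%, 15.0% and 15.9%. mt-Nd5 took 3.58%, 3.89% and 4.94% against 2.84%, 2.73% and 2.25%. For these 3 genes every KO library was above every WT library.

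mt-Nd6, mt-Nd3 and mt-Atp8 also had higher shares in KO libraries without overlap, whereas mt-Nd2, mt-Co2, mt-Atp6, mt-Co3, mt-Nd4l and mt-Nd4 overlapped. Summed by complex, complex I genes took 29.9% ± 1.88 (SD, n = 3) of the mRNA counts in KO and 24.3% ± 0.648 in WT cells. Complex IV genes took 57.1% ± 1.86 and 67.4% ± 0.930, but this sum repeats mt-Co1, which alone took 56.9% and 67.2%. Few counts were assigned to mt-Co2, mt-Co3, mt-Nd3 and mt-Nd4l, which a nuclear copy covers almost whole (below). The sums by complex are therefore not the make-up of the mRNAs of a complex in the cells. The mean shares of mt-Co2 (0.101% and 0.0962%) and mt-Co3 (0.0932% and 0.0759%) were slightly higher in KO cells, with overlap. mt-Cytb counts over mt-Co1 counts were 0.216, 0.211 and 0.254 in KO and 0.116, 0.141 and 0.115 in WT libraries, a ratio 1.84 times as high in KO cells. mt-Nd5 over mt-Co1 was 1.87 times as high and mt-Nd1 over mt-Co1 1.44 times as high, and neither ratio overlapped. A lack of overlap is common in these data, as the 44.3% of all tested genes in CPM shows. When counts were scaled to the summed counts of the 13 mRNA genes and refitted, an alternative added after the data had been seen, no mRNA gene was called. That fit called 5.77% of all genes, and its common coefficient of biological variation was 0.458, against 0.259 with TMM.

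**Figure D3:**
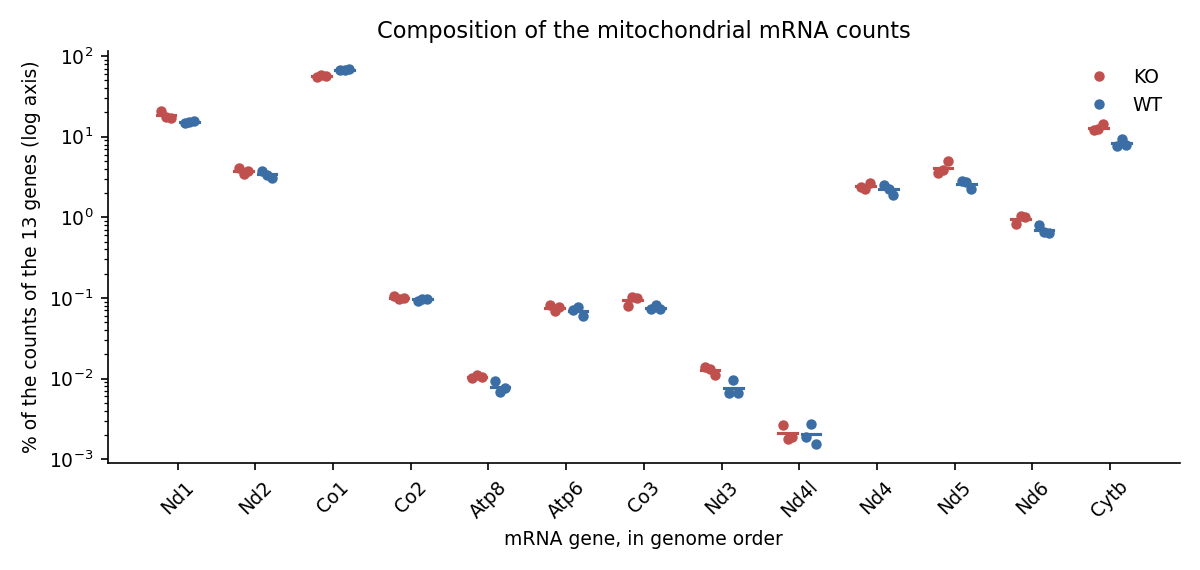
Percent of the counts of the 13 mRNA genes taken by each gene, on a log axis, in genome order. Points are libraries and short lines are means of the 3 KO (red) and 3 WT (blue) libraries. mt-Co1 is lower in every KO library, at 55.8% to 59.1% against 66.3% to 68.2%, and mt-Nd5 and mt-Cytb are higher.

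mt-Tp showed the largest change of the called tRNA genes. Its counts were 735, 1122 and 1053 in KO libraries against 2305, 1555 and 5375 in WT libraries, or 20.6, 25.7 and 25.7 CPM against 66.6, 47.4 and 145 CPM. The KO libraries lay close together, WT3 was far above the other WT libraries, and the genotypes did not overlap. The log2 fold change was −1.85 (SE 0.38, adjusted p = 0.0145 by edgeR, lower in 3 of 3 KO libraries than in any WT library). The call held with each library left out in turn, with log2 fold changes from −2.15 to −1.28 and adjusted p-values up to 0.046. The neighbouring mRNA gene mt-Cytb was not called, and the count of mt-Tp over that of mt-Cytb was 0.00693 ± 0.00337 (SD, n = 3) in KO and 0.0387 ± 0.0103 in WT cells.

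mt-Tc was at 4.92, 5.61 and 5.29 CPM in KO and at 13.4, 9.35 and 19.98 CPM in WT libraries. Its log2 fold change was −1.43 (SE 0.28, adjusted p = 0.0120 by edgeR), and without WT1 the adjusted p was 0.0501. mt-Tn had 42, 65 and 41 counts in KO and 99, 88 and 165 in WT libraries, with mean CPM of 1.22 ± 0.247 and 3.33 ± 0.970 (SD, n = 3 each). Its log2 fold change was −1.44 (SE 0.32, adjusted p = 0.0188 by edgeR). For both genes the genotypes did not overlap and WT3 was the highest library. The call of mt-Tn was lost without KO3, WT1 or WT3, where the adjusted p rose to 0.0562, 0.0621 and 0.0780. With counts scaled to the mitochondrial mRNA genes, mt-Tp kept its call (log2 fold change −1.83, adjusted p = 0.0362 by edgeR) and lost it without KO1, KO3, WT1 or WT2, and mt-Tc (−1.51, adjusted p = 0.155) and mt-Tn (−1.505, adjusted p = 0.216) were not called.

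The other tRNA genes were near the limit of the counts. mt-Tw, the tryptophan tRNA gene of the same cluster but on the heavy strand, was singled out after its values were seen. It had 7, 2 and 3 counts in KO and 10, 13 and 12 in WT libraries, without overlap, and a log2 fold change of −1.69 (SE 0.59, adjusted p = 0.0736 by edgeR). mt-Th, the histidine tRNA gene, had 12, 11 and 31 counts in KO and 7, 1 and 18 in WT libraries and was not called (log2 fold change 0.87, SE 0.79, adjusted p = 0.446). Where a library had no count, the limit was a CPM of 0.0687 to 0.0914, corresponding to 3 counts on the same TMM scale. The 14 heavy-strand tRNA genes together had 25, 18 and 46 counts in KO and 25, 24 and 39 in WT libraries, which overlapped.

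The deposited TPM values, in which StringTie corrects for gene length, listed more tRNA genes above 0 than the counts. Where genes overlap, these values can fall on 1 of them, as with mt-Atp6, at 0 TPM in every library beside mt-Atp8. They come from the same reads and are no independent evidence. In limma on log2(TPM + 1), 5 of 29 tested members were called lower, beside 11.9% of all genes in that test, and 2 were called higher, beside 8.59%, both near the background. Those lower were mt-Tp (−1.52, adjusted p = 0.0180), mt-Tc (−1.23, adjusted p = 0.00648), mt-Tn (−2.07, adjusted p = 0.00195), mt-Ta (−2.06, adjusted p = 0.00247) and mt-Ty (−0.91, adjusted p = 0.0252), all on the light strand. mt-Ta and mt-Ty, named after their values were seen, carry alanine and tyrosine and lie beside mt-Tn and mt-Tc in the cluster, with these sequences in GENCODE vM21:
mt-Ta: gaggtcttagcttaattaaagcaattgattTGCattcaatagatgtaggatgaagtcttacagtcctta
mt-Ty: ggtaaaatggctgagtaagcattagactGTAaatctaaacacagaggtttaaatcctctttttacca

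mt-Ta was at 121, 84.2 and 118 TPM in KO and at 436, 311 and 662 TPM in WT libraries. mt-Ty was at 113, 119 and 157 TPM in KO and at 221, 195 and 325 TPM in WT libraries. Neither gene overlapped between genotypes in TPM, but their counts were only 2 to 13 and 1 to 7 in a library. The counts of mt-Ta were 3, 2 and 4 in KO and 7, 13 and 13 in WT libraries. Those of mt-Ty overlapped, with 3, 3 and 6 in KO and 1, 3 and 7 in WT libraries. Of the other light-strand tRNA genes, mt-Tq (glutamine) and mt-Te (glutamate) had positive log2 differences of 0.32 and 0.80, mt-Ts1 (serine) had −0.16, and none of these was called. In TPM, mt-Te was nevertheless higher without overlap, at 200, 173 and 344 in KO and 129, 104 and 169 in WT libraries. On the heavy strand, mt-Tl1, a leucine tRNA gene that follows mt-Rnr2, was called higher (1.28, adjusted p = 0.0195 by limma), with 107, 59.5 and 119 TPM in KO and 30.9, 30.8 and 53.2 TPM in WT libraries. Almost no counts were assigned to it, with 1, 0 and 1 in KO and 0 in every WT library. mt-Nd3 was called higher as well (0.99, adjusted p = 0.0489 by limma), a call not made with a pseudocount of 0.1 or without the filter on TPM. A tRNA gene is shorter than a read of these libraries, so a fragment over it may also cover a neighbouring gene. By default featureCounts leaves out reads that overlap several genes, so counts and TPM of a tRNA gene can rest on different fragments.

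**Figure D4:**
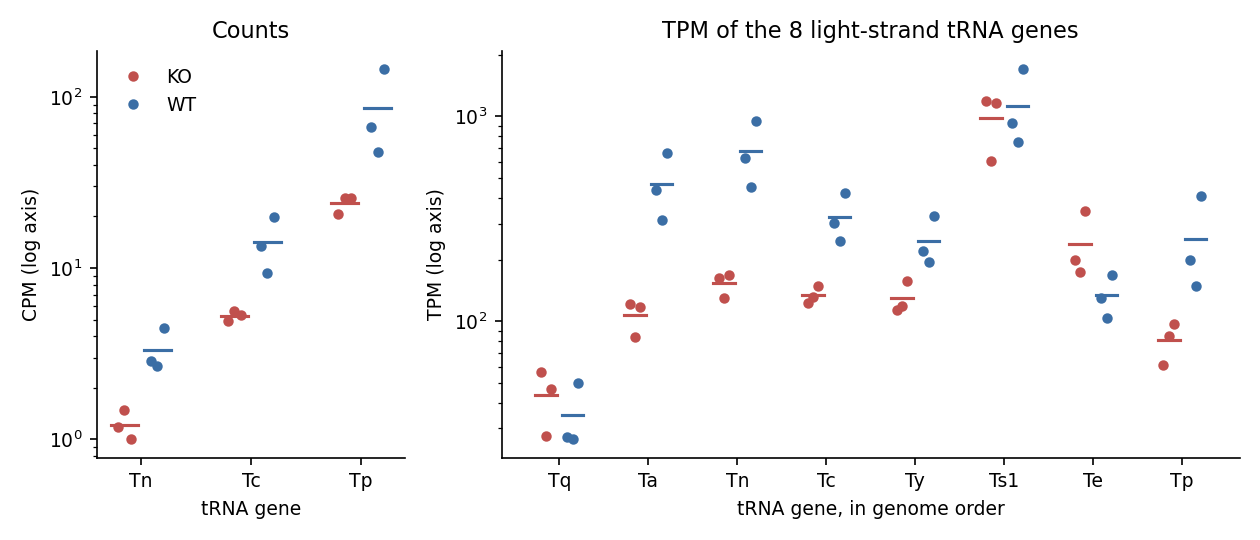
Left, CPM of mt-Tn, mt-Tc and mt-Tp, and right, TPM of the 8 light-strand tRNA genes in genome order, both on log axes. Points are libraries and short lines are means of the 3 KO (red) and 3 WT (blue) libraries. KO libraries lie below WT libraries for mt-Ta, mt-Tn, mt-Tc, mt-Ty and mt-Tp, and not for mt-Tq, mt-Ts1 and mt-Te.

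Levels could not be compared between all mRNA genes, because part of the mitochondrial genome has a near-identical copy in the nucleus. A stretch of chromosome 1 holds 7 pseudogenes, from Gm28439 to Gm29216 (chr1:24611535-24616197, GRCm38), that match mt-Nd4, mt-Nd4l, mt-Nd3, mt-Co3, mt-Atp6, mt-Co2 and mt-Co1 in whole or in part. Over the compared bases, 5 of the copies had 0 differences, Gm29216 had 6 in the last 492 bases of mt-Co1, and Gm28438 had 1 in 345 bases of mt-Nd3. That base, T3C with positions counted from the first base of mt-Nd3, is in capitals below. It is marked in mt-Nd3 (chrMT:9459-9518) and in its copy (chr1:24613060-24613119, minus strand), to show how little separates the 2 places in the reference sequence.
mt-Nd3: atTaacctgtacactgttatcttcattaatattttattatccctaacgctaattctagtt
Gm28438: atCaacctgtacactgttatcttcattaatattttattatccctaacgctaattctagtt

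Genes covered almost whole by a copy had few counts. Of the windows of 150 bases, the length of a read, in mt-Co2, 99.4% also occurred in an annotated nuclear transcript, and mt-Co2 had 606 to 1551 counts in a library. The share was 99.4% for mt-Atp6, 99.8% for mt-Co3, 97.0% for mt-Nd3 and 98.0% for mt-Nd4l, which had as few as 13 counts. It was 0% for mt-Nd1, mt-Nd2, mt-Nd5, mt-Nd6, mt-Cytb and both rRNA genes. Per kilobase, mt-Co2 had a mean of 1535 counts and mt-Cytb 101088. mt-Atp8 was low as well, at 484 counts per kilobase, although 0% of its windows occurred in an annotated nuclear transcript. No pseudogene of mt-Atp8 is among the 7. On chromosome 1, the copies of mt-Co2 and mt-Atp6 are 233 bases apart, as are the matched bases of both genes in the mitochondrial genome. Most of mt-Atp8 lies in that mitochondrial stretch. The sequence of the gap on chromosome 1 was not read here, and the cause of the low mt-Atp8 counts was not tested. mt-Co1 and mt-Nd4 are covered in part, with 23.6% and 59.2% of windows shared, and had 420824 and 17811 counts per kilobase, so that mt-Co1 was the highest of these genes and mt-Nd4 lay beside mt-Nd6 (17073), which had no shared window.

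The deposited read depth, which StringTie gives per base, was similar on gene and copy for mt-Co2, mt-Co3 and mt-Nd3. In KO1, the depth was 45116 on mt-Co2 and 45335 on Gm28661, and in WT1 it was 24812 and 24940. The 7 copies themselves had 20 to 2168 counts in a library, and 0 of them were called. The change of mt-Nd3 rests on the counts assigned to it, 46 to 171 in a library. Its copy Gm28438 had more in every library, with 508, 435 and 545 counts in KO and 455, 370 and 717 in WT libraries, and its genotypes overlapped. Which base these cells carry at the position where mt-Nd3 and Gm28438 differ was not read here. Counts on Gm28438 may therefore include RNA of mt-Nd3. In TPM, mt-Nd1, mt-Nd2, mt-Atp6 and mt-Nd4 were listed at 0 in every library despite their counts, and mt-Nd4l took 6.48% to 19.2% of all TPM, so the mitochondrial share of TPM (11.2% to 30.9%) is not comparable with that of counts.

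**Figure D5:**
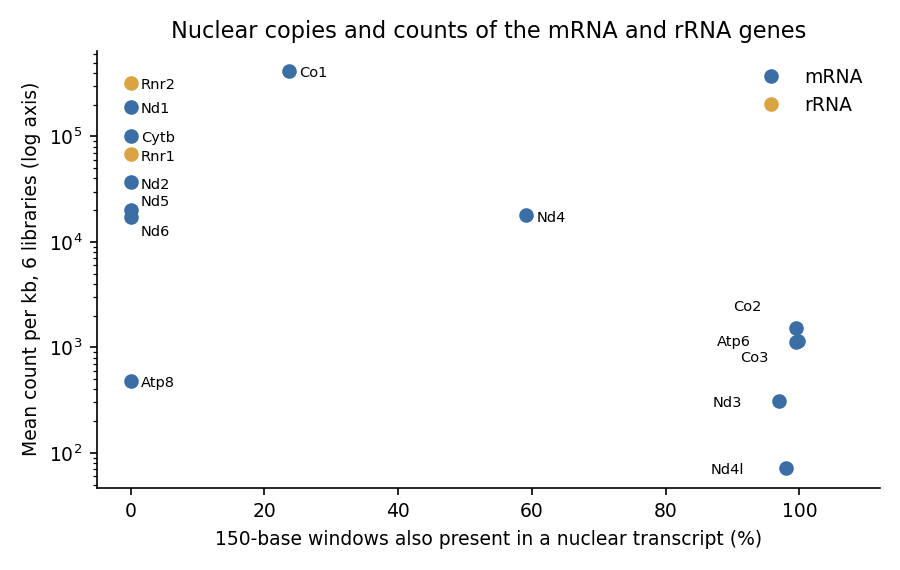
Mean count per kilobase over the 6 libraries (log axis) against the percent of 150-base windows of each mRNA (blue) and rRNA (orange) gene that also occur in an annotated nuclear transcript. The 5 genes with nearly all windows shared have at most 1535 counts per kilobase, whereas mt-Nd1, mt-Nd2, mt-Nd5, mt-Nd6, mt-Cytb and both rRNA genes, with 0%, have more than 10 times as many, and mt-Atp8 is low with 0%.

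Among the nuclear genes that transcribe, process and translate mitochondrial RNA, the called genes went in both directions. The counts below stand beside 10.6% of all tested genes called lower and 12.1% called higher. Of 20 genes for transcription and replication of the mitochondrial genome, 1 rose and 2 fell: *Rnaseh1*, which removes RNA from RNA-DNA hybrids, rose (log2 fold change 1.09, adjusted p = 0.00510 by edgeR), and the helicase gene *Twnk* (listed as Peo1 in the files, −0.70) and the primase gene *Primpol* (−0.68) fell. The polymerase gene *Polrmt* (−0.19) and the genome-packaging factor gene *Tfam* (−0.28) were not called. Of 24 genes for RNA processing and decay, 2 rose (*Angel2*, 0.83, and *Trub2*, 0.52, whose call was lost with any library left out) and 4 fell, among them *Ptcd2* (−1.03), *Fastk* (−0.57) and *Grsf1* (−0.56). *Trmt10c* (−0.08) and *Hsd17b10* (−0.29), subunits of the enzyme that cuts the 5′ end of mitochondrial tRNAs, and *Elac2* (−0.14), which cuts the 3′ end, were not called.

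Of 28 genes that charge or modify mitochondrial tRNAs, 2 rose (*Trmt5*, 0.83, and *Trmu*, 0.60) and 3 fell (*Gtpbp3*, −0.83, *Fars2*, −0.78, and *Trit1*, −0.61). The synthetase genes that charge the 3 called tRNAs were not called, with log2 fold changes of 0.48 for *Pars2*, 0.21 for *Cars2* and −0.03 for *Nars2*. Of 76 mitoribosomal protein genes, 1 rose (*Mrpl20*, 0.76) and 14 fell, led by *Mrpl38* (−1.23), *Mrps30* (−0.94) and *Mrpl4* (−0.88). The other genes were not called in any of these lists, and the medians were −0.18 for transcription and replication, −0.14 for RNA processing, −0.03 for tRNA charging and −0.31 for the mitoribosome, beside 0.03 over all tested genes.

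In the lists that bear on mitochondrial content, every called gene was lower in KO cells, beside 10.6% of all tested genes called lower and 12.1% called higher. Among 12 regulators of mitochondrial biogenesis, 0 rose and 3 fell: the coactivator gene *Ppargc1a* was at 2.26, 1.396 and 1.02 CPM in KO and at 37.6, 21.3 and 37.9 CPM in WT libraries (log2 fold change −4.37, adjusted p = 0.000728 by edgeR), and the receptor genes *Esrrg* (−4.66) and *Esrra* (−1.33) fell too. *Esrrg* had 0 counts in KO2, and its log2 fold change ran from −6.43 to −4.05 with a library left out. Over the other planned settings, the value ran from −5.06 to −0.71 for *Esrrg* and from −4.40 to −2.12 for *Ppargc1a*. Both were called in each of these settings that tested them. The call of *Esrra* was lost without KO3, WT1 or WT3. Of 78 nuclear-encoded respiratory chain genes, 0 rose and 17 fell, led by *Cox6a2* (−1.56), *Ndufs4* (−1.35) and *Ndufs7* (−1.10), with a median of −0.45 against 0.45 for the 13 subunits encoded in the mitochondrion. Of 18 other mitochondrial proteins, 0 rose and 4 fell, among them the channel genes *Vdac3* (−0.94) and *Vdac1* (−0.77) and the citrate synthase gene *Cs* (−0.67). Of the 26 nuclear genes named here as rising or falling, 17 lost the call without WT1, 14 without WT3 and 11 without KO3. *Ckm* and the other myotube markers, whose sums are given above, are the values that bear on differentiation state, and their part in these lists was not tested.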

How the data were processed

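RNA from 3 *Hnrnpa2b1* KO and 3 WT libraries was compared. The authors aligned trimmed reads with STAR after in silico rRNA removal and deposited a raw count per gene from featureCounts. They also deposited TPM values and read coverage (signal, per base) from StringTie for each library. The submitters' notes name FastQC, Trim Galore and Salmon as well, and no versions. The notes name mm9 and the methods GRCm39, whereas the deposited coordinates fit GRCm38, which is used here. The strand setting of the counting is not given in the sources used here, so reads of a gene and its antisense partner cannot be told apart; featureCounts by default leaves out reads that map to several places or overlap several genes.

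Counts were filtered with filterByExpr, scaled with TMM and tested two-sided by genotype with edgeR 4.0.16 (quasi-likelihood, Benjamini-Hochberg, threshold 0.05) in R 4.3.3. Standard errors are the fold change over the root of the test statistic. An exact permutation test of 3 against 3 libraries cannot go below 0.1 and was not used. TPM values were tested with limma 3.58.1 on log2(TPM + 1), on genes with at least 1 TPM in at least 3 libraries, and DESeq2 1.42.0 was an alternative. The edgeR, DESeq2 and limma fits, at their main settings, were tested on simulated counts with less spread between libraries than these data. The other steps were not simulated. Genes named by rule were all mRNA and rRNA genes, and tRNA genes past the threshold or among the 2 highest in CPM. They also included the 3 largest changes in each direction of each nuclear list, and *Hnrnpa2b1*. Other genes were named outside this rule, among them mt-Tw, mt-Th, mt-Tl1, *Polrmt*, *Tfam*, *Elac2* and *Pars2*. The members, lists and tests were chosen with earlier results of these data known. No deposited column of counts was left unused. The mitophagy list is not reported here.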

Additional observations from a re-analysis of the deposited data

How the results depend on the processing

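With 3 libraries per genotype, the number of mitochondrial genes called depended on the method. It was 3 with TMM, with RLE size factors and with mitochondrial genes left out of the library sizes, 5 with DESeq2, 6 without a filter on low counts, 7 in limma on log2(TPM + 1), 6 with a pseudocount of 0.1 and 3 with no filter on TPM, and from 1 (without WT1) to 4 with a library left out. mt-Tp, mt-Tc and mt-Tn were lower in all of these, and the call of mt-Tp was lost only with no filter on TPM (adjusted p = 0.110 by limma). Of all genes tested, 22.7% were called with TMM, 15.0% without a filter, 20.5% in limma on log2(TPM + 1), 20.3% with a pseudocount of 0.1 and 3.94% with no filter on TPM. DESeq2 called 13.8% of the 30252 genes with a count, a total that includes any gene its own filter left without an adjusted p. The count of all genes called was 3361 and lay between 933 and 4713 with a library left out, lowest without WT1, then without WT3 (1288), KO3 (2088) and WT2 (2100). The difference in mitochondrial share, 1.04 percentage points, was 0.597 without the rRNA genes, 0.694 relative to TMM library sizes, 1.099 without the 10 most counted nuclear genes and 5.74 as a share of TPM. The log2 fold change of mt-Co1 lay between −0.28 and 0.36 with a library left out. Replicate numbers did not pair the libraries (correlations of same-numbered deviations 0.163, −0.122 and −0.0502). With the replicate number as a block, 5 mitochondrial genes were called, mt-Nd5 and mt-Nd6 in addition, beside 2520 of all genes (17.0%), and *Primpol*, *Trub2*, *Grsf1*, *Trmu*, *Fars2* and *Cs* were no longer called.

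With counts scaled to the mitochondrial mRNA genes, chosen after seeing the data, 1 gene was called, and 0 without KO1, KO3, WT1 or WT2, with 2, 1, 2 and 4 at an unadjusted p under 0.05 by edgeR. The median of all genes shifted from 0.03 to −0.19. mt-Rnr1 reversed to −0.012, and to −0.082, −0.11, −0.11 and −0.15 without KO1, KO3, WT2 or WT3. Without KO1 or WT3, mt-Rnr2 reversed to −0.018 and −0.090 and mt-Nd4l to −0.14 and −0.13. None of these reversed values was called under either scaling. The causes were not tested. Of the tRNA genes, 17 had too few assigned counts to test, although some had many reads over them by StringTie (mt-Ts1, a depth of 7737 to 22037 with 0 counts).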
